A study of Canis lupus familiaris with 20 samples.

Results

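CD163, CD209 and ADGRE1 encode 3 surface proteins by which macrophages are commonly recognised, and their transcripts were followed through the co-culture of canine macrophages with canine mammary cancer cells. All probes of the 3 genes on the array were taken by the RefSeq accession in the array design, which gave 4 of 43603 probes. CD163 had 2 probes, 1 printed as 5 spots and 1 as a single spot, and CD209 and ADGRE1 had 1 probe each. Symbols were assigned to 1648 probes of the array, for 1045 genes.

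CD163 is the scavenger receptor through which macrophages take up haemoglobin bound to haptoglobin. Glucocorticoids and interleukin 10 raise it, and ectodomain shedding releases it from the cell surface. CD209, known as DC-SIGN, is a C-type lectin of macrophages and dendritic cells that binds mannose-rich glycans on pathogens and on adhesion molecules. ADGRE1 is an adhesion G protein-coupled receptor, and its mouse counterpart, F4/80, is the classical marker of mature tissue macrophages.

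The study asked how each cell type changes when it is grown with the other. Monocytes positive for CD64 were sorted from the blood of healthy dogs and layered on cancer cells of 5 mammary lines that had been stained with the dye CMTMR. CMT-W1 and CMT-W2 come from adenocarcinomas, P114 from an anaplastic cancer, CMT-U309 from a spindle-cell tumour of the mammary gland and CMT-U27 from a simple carcinoma. After 72 h the co-cultures were trypsinised and sorted into stained cancer cells and unstained macrophages, and each population was compared with its own mono-culture, which was scraped and not sorted. Each comparison was hybridised on 2 two-colour Agilent arrays with the dyes exchanged, so 20 arrays gave 10 dye-swap pairs, 5 of either population. A pair was counted as 1 replicate, since the methods describe it as a dye-swap, although the sample labels call its arrays biological replicates. How many separate macrophage mono-cultures were grown, and from how many dogs, is not stated, and the number of arrays limits the precision.

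The sorted populations of a co-culture resembled each other more than their mono-cultures did. Across 15227 genes the Pearson correlation of levels between sorted cancer cells and sorted macrophages of the same co-culture was 0.826 to 0.986, against 0.471 to 0.793 between the mono-cultures. The CMT-U27 sorted cancer cells correlated with mono-cultured macrophages at 0.906 and with their own mono-culture at 0.830. The macrophages sorted from CMT-U27 correlated at 0.866 with mono-cultured CMT-U27 and at 0.831 with mono-cultured macrophages. For the macrophages sorted from P114 these values were 0.923 and 0.815, and for those from CMT-U309 they were nearly equal, 0.854 and 0.851. They were also nearly equal for the macrophages from CMT-W2, 0.84 and 0.84, and from CMT-W1, 0.765 and 0.776. The profiles of CMT-U27 and P114 named here lay closer to the other cell type's mono-culture than to their own, so results were also computed without these 2 co-cultures, and without each line in turn. The labels were kept as given. A sorted population was measured in bulk, so that fewer cells of a type and less RNA per cell cannot be told apart.

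In mono-culture all 3 genes marked the macrophages. Their probes were well above background on all 10 mono-cultured macrophage channels, and on 4 of 10 mono-cultured cancer cell channels for CD163, 2 of 9 usable channels for CD209 and 4 of 10 for ADGRE1. No spot of the 3 genes was saturated. The log2 signal level of CD163 (the 5-spot probe) was 16.82, 16.49, 16.83, 17.03 and 16.82 in the macrophage mono-cultures hybridised for CMT-U27, then CMT-U309, P114, CMT-W1 and finally CMT-W2. Among the lines grown alone it was 8.55 in CMT-U27, 7.18 in CMT-U309, 4.73 in P114, 5.36 in CMT-W1 and 4.60 in CMT-W2. The groups were far apart, and only CMT-U27 and CMT-U309 were above background among the lines.

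CD163 was 10.71 higher in mono-cultured macrophages on the log2 scale (SE 0.69, adjusted p = 1.02e-06 from limma). CD209 was 8.06 higher (SE 0.37, adjusted p = 2.51e-07) and ADGRE1 6.38 higher (SE 0.42, adjusted p = 1.19e-06). Of 23275 genes tested, 20.4% were called higher in the macrophages. In mono-cultured cancer cells most channels were not well above background for any of the 3 genes, so the sizes of these differences are uncertain. The CD209 level was 12.15 ± 0.05 (SD, n = 5) in the macrophages and 4.10 ± 0.76 (n = 4) in the cancer cells. The ADGRE1 level was 11.88 ± 0.21 (n = 5) against 5.50 ± 0.93 (n = 5). The 5 macrophage values of each gene may come from fewer than 5 cultures, so their SD may understate the spread between cultures. With normexp, loess and Aquantile on median signals the differences were smaller, 7.51 for CD163, 3.70 for CD209 and 3.15 for ADGRE1.

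**Figure D1:**
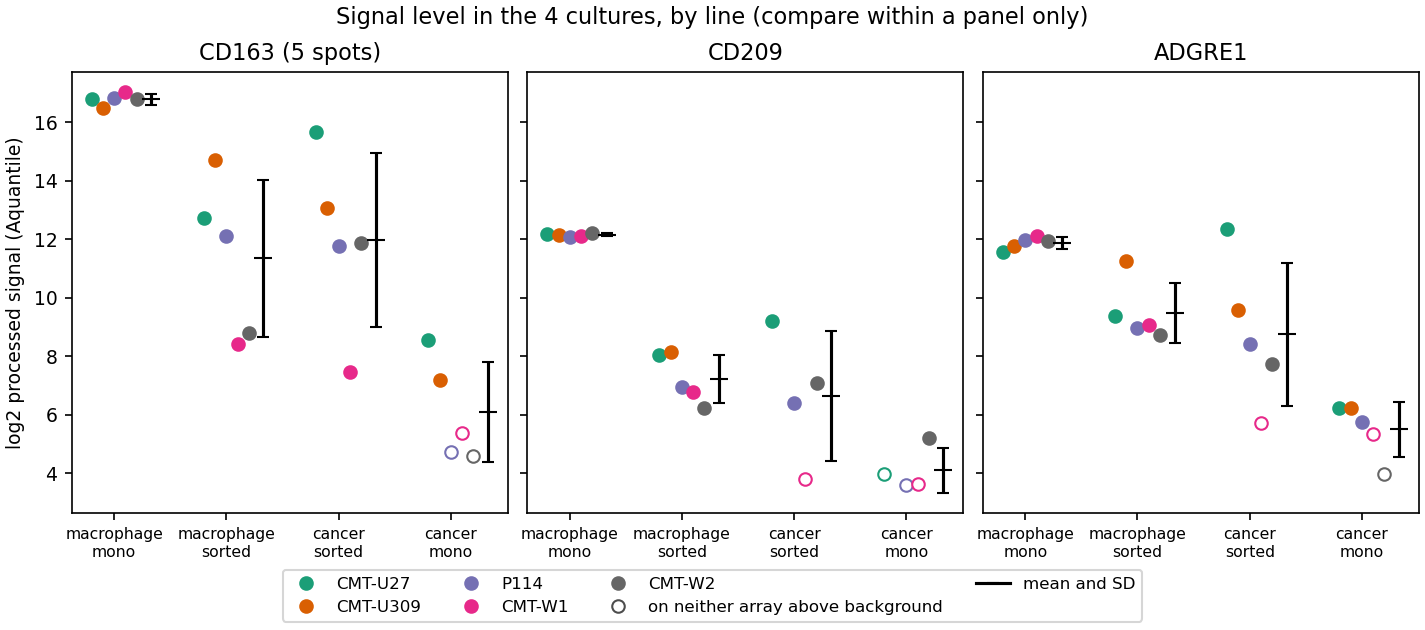
Log2 processed signal of CD163, CD209 and ADGRE1 (vertical axis, after Aquantile normalization) in mono-cultured macrophages, macrophages sorted from co-culture, cancer cells sorted from co-culture and mono-cultured cancer cells. Each point is the mean of a dye-swap pair, coloured by line, open where neither array was above background, and the bar is the mean and SD. The mean of the mono-cultured macrophages lies highest, that of the mono-cultured cancer cells lowest, and the means of both sorted populations lie between them, with overlapping single values.

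After co-culture CD163 was higher in the sorted cancer cells of all 5 lines than in the same line alone. Its log2 ratio against the mono-culture was 7.13 in CMT-U27, 5.88 in CMT-U309, 7.03 in P114, 2.11 in CMT-W1 and 7.28 in CMT-W2. It was positive on every array, from 1.67 to 7.66, and CMT-W1 stood far below the other lines. The rise was 140-fold in CMT-U27 and 59.1-fold in CMT-U309, where both cultures were above background. In the other lines the mono-culture was not well above background on either array, and the rise was at least 69.6-fold in P114, 57-fold in CMT-W2 and 1.18-fold in CMT-W1, measured against the lowest signal that counted as above background on each array. The mean log2 ratio was 5.89 ± 2.18 (SD, n = 5 lines), with an adjusted p of 0.00745 from limma.

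Of 24419 genes tested in the cancer cells, 6.12% rose and 6.7% fell. Without any single line the mean was 5.54 to 6.83 with an adjusted p of at most 0.0331. Without both CMT-U27 and P114 it was 5.09 (adjusted p = 0.0876 from limma, n = 3 lines). With normexp and loess it was 3.25 (adjusted p = 0.0784), and with the methods' t-test the adjusted p was 0.225, against a range of 0.000282 to 0.225 over all alternatives.

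The single-spot probe of CD163 moved the same way. Its log2 ratios were 5.84 in CMT-U27, 4.07 in CMT-U309, 5.30 in P114, 1.87 in CMT-W1 and 5.27 in CMT-W2, with a mean of 4.47 ± 1.59 (n = 5, adjusted p = 0.00677 from limma with every probe tested). The 5-spot probe was higher by 0.25 in CMT-W1 and by 1.29 to 2.01 in the other lines, so the size of the rise depends on the probe. In CMT-W1 the single-spot probe was not measured on both arrays.

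ADGRE1 rose in the cancer cells as well, most in CMT-U27. The log2 ratio was 6.11 in CMT-U27, 3.38 in CMT-U309, 2.66 in P114, 0.39 in CMT-W1 and 3.76 in CMT-W2. In CMT-W1 the probe was not above background in either culture, and 1 of its arrays gave -0.27. The dye orientations of P114 also lay apart, at 1.30 and 4.02. In CMT-W2 the mono-culture was not above background, and the rise there was at least 3.2-fold. The mean was 3.26 ± 2.06 (n = 5, adjusted p = 0.0264 from limma).

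That call was not stable. The adjusted p was 0.0549 without CMT-U27, 0.0612 without CMT-U309, 0.0636 without P114 and 0.0696 without CMT-W2, and with normexp and loess the mean was 1.29 (adjusted p = 0.166). Over all alternatives the adjusted p ran from 0.00525 to 0.382, the highest with the methods' t-test. Without both CMT-U27 and P114, ADGRE1 was measured in too few lines to be tested.

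CD209 could be measured in few of the cancer cell samples. Its log2 ratio was 5.24 in CMT-U27, 2.82 in P114, 1.89 in CMT-W2 and 0.15 in CMT-W1. For CMT-U309 it was 3.17 on the array with the co-culture in Cy3, and the other array was left out because its spot carried an outlier mark. Such marks were common in this pair, with up to 9870 outlier spots on an array. The CMT-W2 cancer cell pair on the same slide had up to 1438, and every other pair at most 40. The gene counted as measured in CMT-U27 and P114 only, and was therefore not tested. In those lines the mono-culture was not above background, and the rise was at least 8.97-fold in CMT-U27 and 1.71-fold in P114. In CMT-W1 neither culture was above background, and the software had set 1 of the ratios to 0. With no filter on dim probes the mean over 4 lines was 2.53 (adjusted p = 0.18 from limma). With outlier spots kept it was 2.30 over 5 lines (adjusted p = 0.0534), and with the arrays that carried the co-culture in Cy3 alone it was 2.96 (adjusted p = 0.0373).

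**Figure D2:**
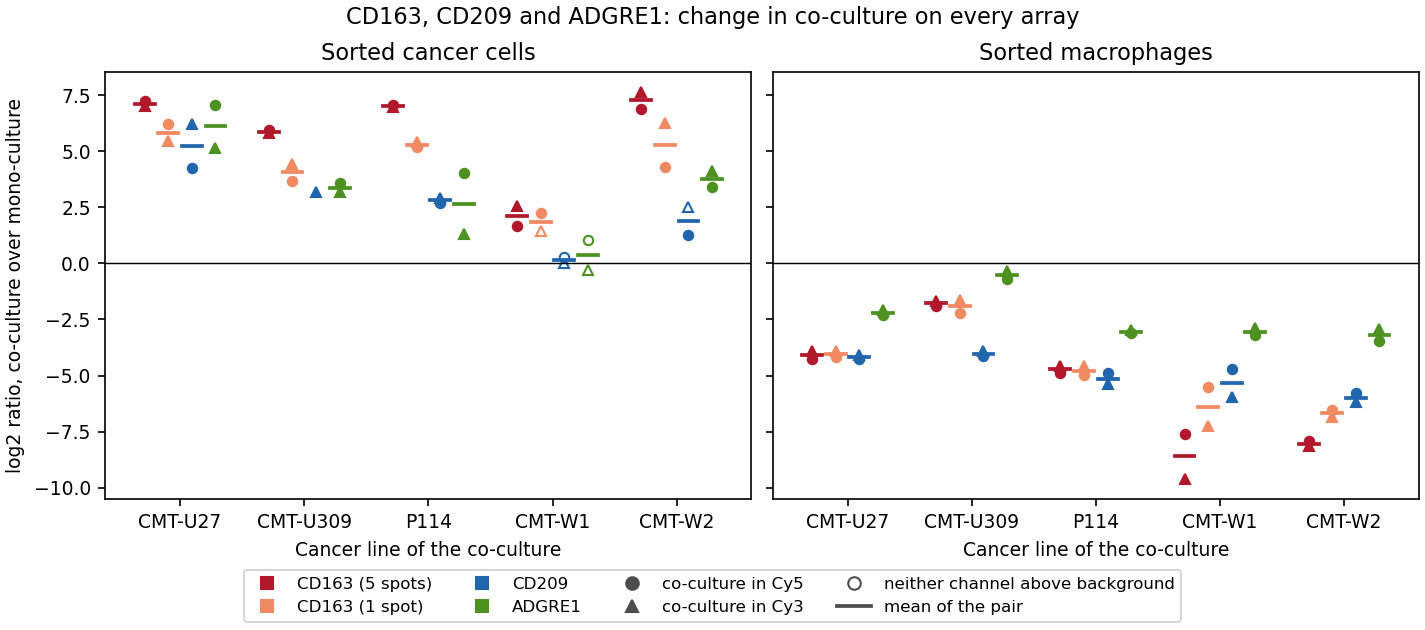
Log2 ratio, co-culture over mono-culture (vertical axis), for every array of the cancer cells (left) and the macrophages (right), by line. Colours mark the probes of CD163, CD209 and ADGRE1, circles and triangles the dye of the co-culture, open symbols arrays with neither channel above background, and short bars the mean of a pair. Ratios are positive in the cancer cells apart from CD209 and ADGRE1 in CMT-W1, which lie near 0, and negative on all macrophage arrays.

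In the sorted macrophages all 3 genes fell, and none was above 0 on any array. The log2 ratio of CD163 was -4.09 in the co-culture with CMT-U27, -1.78 with CMT-U309, -4.73 with P114, -8.61 with CMT-W1 and -8.03 with CMT-W2. The lowest ratios belonged to both adenocarcinoma lines and the mildest to CMT-U309. As folds, CD163 was 17.1 times lower with CMT-U27, 3.43 times with CMT-U309, 26.5 times with P114, 391 times with CMT-W1 and 262 times with CMT-W2. The mean was -5.45 ± 2.85 (n = 5 co-cultures, adjusted p = 0.00321 from limma).

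The single-spot probe gave -4.04 with CMT-U27, -1.92 with CMT-U309, -4.78 with P114, -6.38 with CMT-W1 and -6.69 with CMT-W2, with a mean of -4.76 ± 1.93 (adjusted p = 0.00133). Both probes were within 0.14 of each other with CMT-U27, CMT-U309 and P114. With CMT-W1 and CMT-W2 the 5-spot probe was lower by 2.23 and 1.35, and with CMT-W1 its dye orientations were 2.03 apart, so the depth of the fall is least certain there.

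CD209 had the most even fall of the 3. Its log2 ratio was -4.17 with CMT-U27, -4.03 with CMT-U309, -5.14 with P114, -5.33 with CMT-W1 and -5.99 with CMT-W2. The mean was -4.93 ± 0.82 (n = 5, adjusted p = 0.000102 from limma), a 30.5-fold fall, and the 30th lowest mean of 25708 genes tested. The sorted macrophages were still above background for CD209 on 8 of 10 arrays. They were not with CMT-W1 and CMT-W2 in Cy3, so the depth of the fall is less certain in these co-cultures, which had the deepest falls. With normexp and loess the mean was -3.28 (adjusted p = 0.000638).

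ADGRE1 fell least. Its log2 ratio was -2.19 with CMT-U27, -0.51 with CMT-U309, -3.04 with P114, -3.04 with CMT-W1 and -3.19 with CMT-W2. CMT-U309 stood apart from the other co-cultures, with a fall of 1.43-fold, and the others fell 4.56-fold to 9.15-fold. The mean was -2.39 ± 1.12 (n = 5, adjusted p = 0.00322 from limma).

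Of all genes tested in the macrophages 27.2% fell and 19.9% rose. All 3 genes passed there in each alternative tried, with an adjusted p from limma or the methods' t-test of at most 0.0245 for CD163, 0.00184 for CD209 and 0.0432 for ADGRE1. Without CMT-U27 and P114 the means were -6.14 for CD163, -5.12 for CD209 and -2.25 for ADGRE1.

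The change was then compared between the populations by a test of the difference itself. For CD163 the macrophages' log2 ratio minus the cancer cells' was -11.34 (SE 1.34, adjusted p = 0.000113 from limma). Of 23772 genes tested, 16.1% were called lower. The size of this difference rests on the same dim mono-cultured cancer cell channels. For ADGRE1 the difference was -5.65 (SE 0.89, adjusted p = 0.00069). CD209 was not tested in the main fit. With no filter on dim probes its difference was -7.46 (adjusted p = 0.000806 from limma). With the filter and outlier spots kept it was -7.23 (adjusted p = 7.04e-05). It was -8.07 and -6.90 with the co-culture in Cy3 or Cy5 alone (adjusted p = 0.000114 and 8.13e-05). Without CMT-U27 and P114 the difference of CD163 was -11.23 (adjusted p = 0.00457). With the co-culture as a paired block the adjusted p was 0.000417 for CD163 and 0.00149 for ADGRE1.

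Population and slide were nearly confounded. Of 5 slides only 1 held both populations, the cancer cells of CMT-W1 and the macrophages of CMT-U27. Within it the difference was -6.21 for CD163, -4.32 for CD209 and -2.58 for ADGRE1. A fit with the slide as a fixed block rests on this slide, and its adjusted p was 0.38 for CD163 and 0.543 for ADGRE1. With the slide as a random block it was 1.76e-05 and 0.000157.

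Levels in both sorted populations did not separate. CD163 had a log2 level of 15.68 in the cancer cells and 12.72 in the macrophages sorted from CMT-U27, of 13.06 and 14.72 from CMT-U309, and of 11.76 and 12.10 from P114. It was 7.48 and 8.42 from CMT-W1, and 11.88 and 8.78 from CMT-W2. In CMT-U27 and CMT-W2 the cells sorted as cancer cells thus carried 7.78-fold and 8.58-fold more CD163 signal than the cells sorted as macrophages. In the other co-cultures the macrophages carried 1.27-fold to 3.14-fold more.

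The mean difference of CD163, macrophages minus cancer cells, was -0.62 (SE 1.52, adjusted p = 1 from limma) on the 5-spot probe and 0.09 on the single-spot probe, so the probes differed in sign. Without a single line the 5-spot value ran from -1.19 to -0.0039. The difference was 0.59 for CD209 (SE 0.93, adjusted p = 1) and 0.73 for ADGRE1 (SE 1.03, adjusted p = 1), which ran from 0.07 to 1.65 without a single line. ADGRE1 was higher in the cancer cells in CMT-U27, by 7.71-fold, and CD209 in CMT-U27 and CMT-W2, by 2.27-fold and 1.84-fold. In the macrophages ADGRE1 was higher in the other 4 co-cultures, by 1.47-fold to 10.2-fold, and CD209 in P114 and CMT-W1, by 1.44-fold and 7.90-fold. The 10.2-fold and 7.90-fold values are both of CMT-W1, whose sorted cancer cells were not above background for either gene on either array. For CD209 the CMT-W1 macrophages and both sorted populations of CMT-W2 were also not above background in Cy3. The sizes of these folds are therefore uncertain. Among 23506 genes, 1 passed in either direction, 0.00425%, while 692 had an unadjusted p under 0.05, and the SEs leave room for differences of several-fold either way. With the co-culture as a paired block 1 gene passed and 2823 had an unadjusted p under 0.05.

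The order of the mean levels was the same at both ends for each gene. Mono-cultured macrophages had the highest mean and varied least, though their 5 values may come from fewer than 5 separate cultures. Mono-cultured cancer cells had the lowest mean, and the neighbours between them, both sorted populations, did not differ beyond their spread. Single values overlapped. ADGRE1 in the sorted cancer cells of CMT-U27, 12.34, lay above every mono-cultured macrophage value, the highest of which was 12.1. The sorted cancer cells of CMT-W1 had 7.48 for CD163, 3.81 for CD209 and 5.72 for ADGRE1. These lay below the highest values of the mono-cultured lines, 8.55, 5.21 and 6.23. For CD163 the sorted cancer cells had a mean of 11.97 ± 2.97 and the sorted macrophages of 11.35 ± 2.69. For CD209 the means were 6.63 ± 2.23 (n = 4) and 7.22 ± 0.83, and for ADGRE1 8.76 ± 2.45 and 9.49 ± 1.02. On the 5-spot probe the lowest sorted macrophage value of CD163, 8.42, lay just under the highest mono-cultured cancer cell value, 8.55. On the single-spot probe these values were 9.29 and 9.06, so the groups did not overlap, nor did they for CD209 and ADGRE1.

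As a share of the mean mono-cultured macrophage level, CD163 (5-spot probe) in the sorted cancer cells was 46.1% in CMT-U27, 7.51% in CMT-U309, 3.04% in P114, 0.156% in CMT-W1 and 3.31% in CMT-W2. In the mono-cultured lines it was 0.0213% to 0.329%. In the sorted macrophages CD163 was at 5.93% with CMT-U27, 23.6% with CMT-U309, 3.86% with P114, 0.301% with CMT-W1 and 0.386% with CMT-W2. The single-spot probe gave higher shares for the adenocarcinoma co-cultures, 1.44% with CMT-W1 and 0.908% with CMT-W2. On both probes the macrophages grown with the adenocarcinoma lines had the lowest CD163 shares of the sorted macrophages.

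ADGRE1 kept the highest shares. In the sorted cancer cells it was 138% in CMT-U27, above the mono-cultured macrophages, 20.5% in CMT-U309, 8.98% in P114, 1.40% in CMT-W1 and 5.63% in CMT-W2. In the sorted macrophages it was 17.8% with CMT-U27, 65.4% with CMT-U309, 13.2% with P114, 14.3% with CMT-W1 and 11.3% with CMT-W2. CD209 was at 13.0% in the cancer cells of CMT-U27, at 0.307% to 3.01% in the 3 other lines with a value, and at 1.63% to 6.17% in the sorted macrophages. The sorted cancer cells of CMT-W1, at 1.40% for ADGRE1 and 0.307% for CD209, were not above background for either gene. Mono-cultured CMT-W1, also not above background, had 1.07% and 0.27%. The shares depend on the processing. With normexp, loess and Aquantile on median signals, the geometric mean share of CD209 was 10.8% in the sorted cancer cells and 10.3% in the sorted macrophages. The main values were 2.18% and 3.28%, and background removal was not varied on its own.

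**Figure D3:**
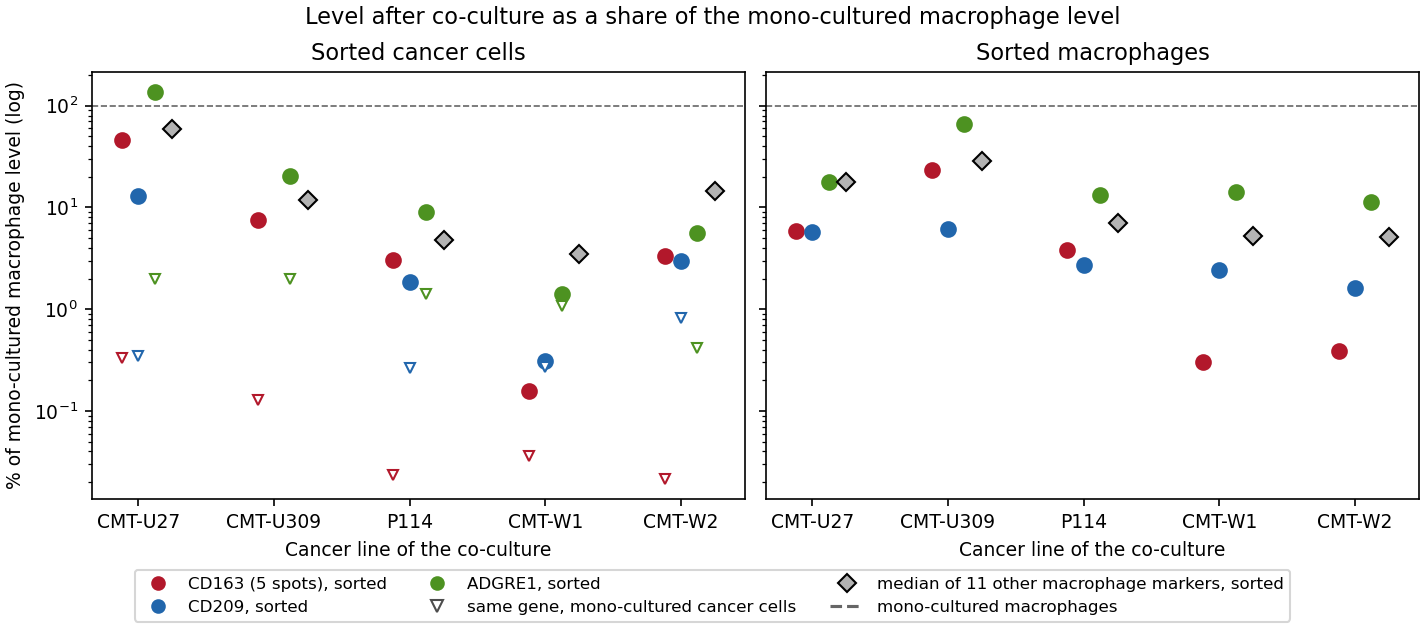
Level in sorted cancer cells (left) and sorted macrophages (right) as a percentage of the mono-cultured macrophage level (vertical axis, log scale), by line. Circles are CD163, CD209 and ADGRE1 after co-culture, triangles the same genes in mono-cultured cancer cells, diamonds the median of 11 other macrophage markers after co-culture, and the dashed line the mono-cultured macrophages. CMT-U27 has the highest shares among the cancer cells and CMT-U309 among the macrophages, for the 3 genes and for the other markers.

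Other macrophage markers moved with the 3 genes. Of a list of 26, 11 were matched to a probe, and 10 of these rose in the cancer cells (6.12% of all genes), 10 fell in the macrophages (27.2%) and all 11 were higher in mono-cultured macrophages (20.4%). The exception in both was CYBB, the catalytic subunit of the phagocyte oxidase, with log2 ratios of 1.09 and -1.34. The median log2 ratio of the list was 3.55 in the cancer cells, against -0.04 over all genes tested, and -3.36 in the macrophages, against -0.19. CTSS, a lysosomal protease of antigen-presenting cells, had 5.92 and -2.92, and C5AR1, the receptor for the complement fragment C5a, 4.98 and -5.73. FCGR1A, which encodes the CD64 used to sort the monocytes, had 5.47 and -3.97.

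The summed signal of these 11 markers was 20400 to 525800 in the sorted cancer cells, 3686 to 29950 in the mono-cultured cancer cells, 64260 to 254400 in the sorted macrophages and 642900 to 858300 in the mono-cultured macrophages. No marker was below background in every line, mono-cultured cancer cells included, where TYROBP and CYBB were above it in all 5 lines. Per line the median share of the mono-cultured macrophage level was 58.7% in the sorted cancer cells of CMT-U27, 11.8% in CMT-U309, 4.83% in P114, 3.53% in CMT-W1 and 14.6% in CMT-W2. It was 17.9% in the macrophages sorted from CMT-U27, 28.9% from CMT-U309, 7.10% from P114, 5.19% from CMT-W1 and 5.11% from CMT-W2. CD163 was below this median in all 10 sorted populations and CD209 in all 9 with a value. The part that macrophages in the sorted cancer cell fraction, or cancer cells in the sorted macrophage fraction, had in these ratios was not tested.

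Epithelial markers were thinly covered, with 3 of 15 matched. CLDN3, a tight junction protein, fell by 1.65 in the cancer cells (adjusted p = 0.0433 from limma, n = 4) and the receptor ERBB2 by 0.74 in the macrophages (adjusted p = 0.0488). MUC1, a mucin of glandular epithelia, had -0.43 in the cancer cells and 0.60 in the macrophages, neither past the threshold. Both CLDN3 and ERBB2 were above background in every macrophage mono-culture. Mono-cultured macrophages minus mono-cultured cancer cells, the level difference was -2.14 for CLDN3 (adjusted p = 0.00359), -1.43 for MUC1 (adjusted p = 0.215) and 0.38 for ERBB2 (adjusted p = 0.313). The summed signal of the 3 was 1905 to 9823 in the sorted cancer cells, 5132 to 21290 in the mono-cultured ones, 2341 to 8037 in the sorted macrophages and 5013 to 6707 in the mono-cultured ones. Of 11 dendritic cell markers 2 were matched, of which FLT3 was below background in the sorted cancer cells and in both mono-cultures and CD1C was above it in all mono-cultured macrophages. CD1C had log2 ratios of -0.28 in the cancer cells and -0.29 in the macrophages, neither past the threshold, and FLT3 was not tested. Of 11 lymphocyte markers 3 were matched. CD4 and CD8A fell in the macrophages, by 1.26 and 0.64, as did 27.2% of all genes. The B cell marker MS4A1 had 2.52 there (adjusted p = 0.0545). CD4 was above background in all 5 lines in both populations, co-cultured and mono-cultured. In mono-culture CD4 was 1.66 higher in macrophages than in cancer cells (adjusted p = 0.0214 from limma), and CD8A 0.07 higher (adjusted p = 0.904).

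Genes of haemoglobin handling fell with CD163 in the macrophages. Of 19 listed scavenger and haemoglobin genes 4 were matched, and all 4 fell there, as did 27.2% of all genes. HMOX1, which degrades haem once CD163 has brought haemoglobin in, had a log2 ratio of -4.01 in the macrophages (adjusted p = 0.000124 from limma) and of 0.08 in the cancer cells (adjusted p = 0.956). The scavenger receptor CD36 had -3.80 in the macrophages, and the ferritin chains FTH1 and FTL, which store iron, had -2.43 and -1.28. In the cancer cells FTH1 and FTL rose, by 3.44 and 2.04. In mono-culture HMOX1 was 3.82 higher in macrophages than in cancer cells (adjusted p = 0.006). Between the sorted populations the HMOX1 level difference, macrophages minus cancer cells, was -0.27 and not past the threshold.

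None of the matched relatives of ADGRE1 was called lower in the macrophages. Of 15 listed adhesion receptors and ligands 4 were matched, and 3 of them rose in the macrophages, as did 19.9% of all genes. ADGRE2 had a log2 ratio of 2.13 (adjusted p = 0.0254), ADGRE5, the leukocyte receptor CD97, of 2.16 (adjusted p = 0.000366) and ADGRL2, a latrophilin, of 3.21 (adjusted p = 0.0118). ADGRE3 had -0.39 in the macrophages (adjusted p = 0.644) and rose by 1.31 in the cancer cells (adjusted p = 0.0432). In mono-culture ADGRE2 and ADGRE3 were 3.47 and 3.87 higher in macrophages than in cancer cells, while the difference was -1.72 for ADGRE5 and -3.41 for ADGRL2. Of 20 listed C-type lectins and lectin ligands 3 were matched, the E-selectin gene SELE, CEACAM1 and LGALS3. LGALS3, which encodes galectin 3, rose in the macrophages by 1.79 (adjusted p = 0.00232). SELE and CEACAM1 had 0.12 and -0.24 there, neither past the threshold. Mono-cultured macrophages minus mono-cultured cancer cells, the level difference was -2.09 for LGALS3 (adjusted p = 0.0055 from limma). It was -0.80 for SELE (adjusted p = 0.108) and 3.19 for CEACAM1 (adjusted p = 0.0168).

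Of 19 listed genes that regulate or shed the 3 proteins 7 were matched and 4 tested in each population. IL10, an inducer of CD163, fell in both, by 1.35 in the macrophages (adjusted p = 0.00271) and by 1.12 in the cancer cells (adjusted p = 0.0285). CSF2, the growth factor GM-CSF, rose in both, by 4.31 in the macrophages (adjusted p = 0.000607) and 4.06 in the cancer cells (adjusted p = 0.0101). IL6 rose by 4.53 and 4.37, and TNF had 0.32 and 0.49, neither past the threshold. The haptoglobin gene HP, CD163L1, MRC1, MSR1, CD68, ICAM2, ICAM3, CD55, ADAM17, IL4, NR3C1 and CLEC4G were not analysed here.

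**Figure D4:**
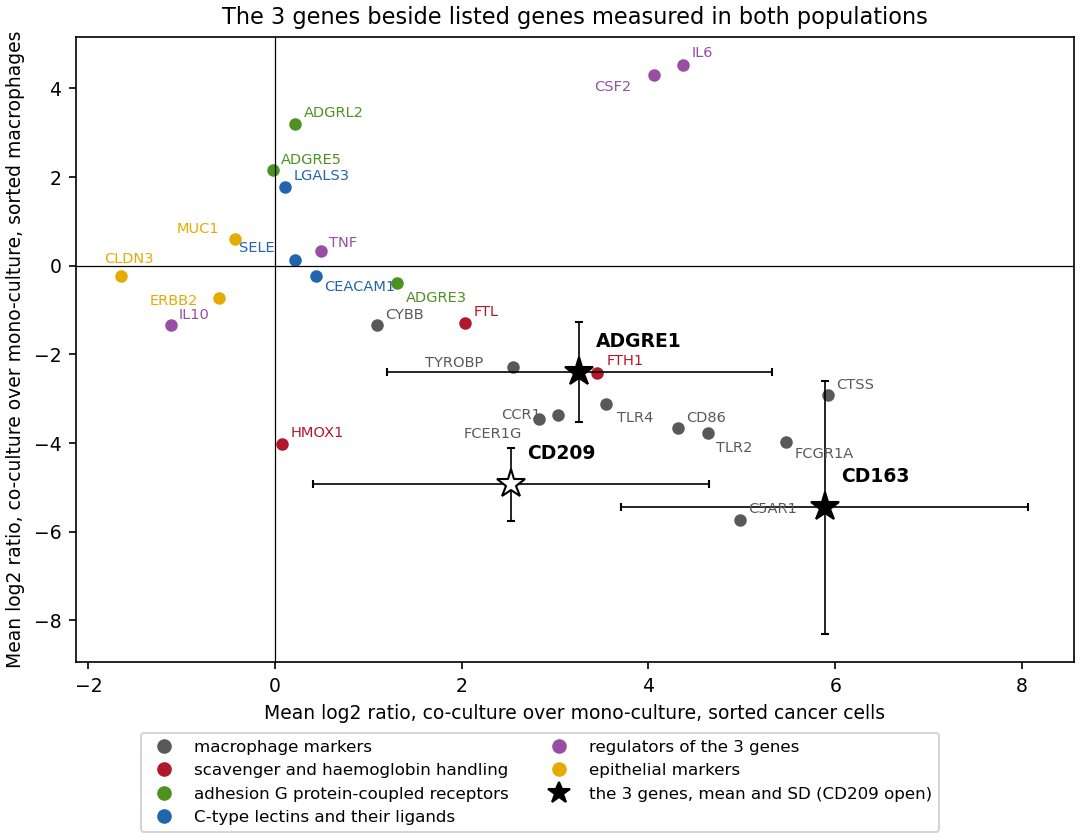
Mean log2 ratio in the sorted cancer cells (horizontal axis) against that in the sorted macrophages (vertical axis), each over up to 5 co-cultures. Stars are CD163, CD209 and ADGRE1 with SD bars, the CD209 star open since it was measured in few cancer cell samples, and dots are genes of the lists that were tested in both populations. The 3 genes lie with the macrophage markers at lower right, and HMOX1, the adhesion receptors ADGRE5 and ADGRL2, and CSF2 and IL6 lie elsewhere.

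The genes with a symbol whose ratios were most like those of the 3 were found by Pearson correlation over the 10 ratios, among 505 genes measured in all. For CD163 they were C5AR1 (r = 0.985), CTSS (0.980), the ectoenzyme CD38 (0.978), the cytokine IL1A (0.978) and the lysosomal protease CTSD (0.977). For CD209, over 9 values, they were the inflammatory caspase CASP12 (0.985), CD38 (0.975), CASP4 (0.972), CD1A6 (0.971) and C5AR1 (0.968). For ADGRE1 they included CASP4 (0.983), CD38 (0.981), TAPBP (0.967) and RAB5C (0.966). The ratios of these genes were positive on average in the cancer cells and negative in the macrophages, so that the correlation chiefly follows that contrast, and ratios of a pair share both RNAs. CD38 was the only gene named for all 3.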

How the data were processed

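RNA of sorted and mono-cultured cells was hybridised to 20 two-colour Agilent arrays. The authors deposited scanner output of Agilent Feature Extraction 10.7.3.1, whose intensity columns hold median, background and processed signals on a linear scale and whose log10 ratio column holds Cy5 over Cy3 after background correction and dye normalization. Other deposited columns hold marks (0 or 1) for spots above background, saturated and outlier spots. The deposited series table repeats the log10 ratio turned to co-culture over mono-culture. Every column had a sample.

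Log10 ratios were turned and converted to log2, and each dye-swap pair was averaged, with marked outlier spots left out. A gene, defined by accession, was represented by its brightest probe and tested where at least 3 of 5 co-cultures were measured, meaning well above background in a channel on both arrays. Ratios of co-cultures below that mark stayed in the mean. For levels, the processed signals were normalized between arrays by Aquantile. limma 3.58.1 in R 4.3.3 tested all genes with Benjamini-Hochberg adjustment at 0.05, and Python 3.11.15 drew the figures. Scripts were tested on simulated data, where the level tests made more false calls than the nominal share when the groups differed in spread. Mean spot signals were not used, so normexp (offset 50) ran on median signals. Symbols came from RefSeq genes of UU_Cfam_GSD_1.0, while the array design follows another build, so no coordinate or sequence is given. Populations of a co-culture share the cell line and are paired by design (correlation of deviations 0.0364 to 0.456). The alternatives were other background and normalization steps, filters, single dyes, every probe, blocks by pair, slide or co-culture, the methods' t-test and each line left out. What is called the methods' t-test was an unpaired t-test of co-culture levels against mono-culture levels, with the gene filter used here. The authors' software and their cutoffs were not rerun. The 3 genes, their named relatives and partners, the marker lists and the tests were chosen with earlier results of these data known. Named besides are, for each of the 3, the 5 genes of highest correlation, apart from 1 gene that is not reported here.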

Additional observations from a re-analysis of the deposited data

Results flagged for a closer look

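The difference of the change between the populations was past the threshold for CD163, at -11.34 (log2 ratio in macrophages minus log2 ratio in cancer cells), and for ADGRE1, at -5.65. Every co-culture gave CD163 a positive ratio in the cancer cells and a negative one in the macrophages.

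A gap of 1 sample to the rest above Dixon's 95% critical value was found in 2 of 24 sets of 4 or 5 values, where chance marks about 1 set in 20. These were the log2 ratio of CD163 (5-spot probe) in the CMT-W1 cancer cells, 2.11, and the log2 level of ADGRE1 in the macrophages sorted from CMT-U309, 11.27. The CMT-W1 cancer cell arrays had the smallest share of spots above background, 52.9% in the co-culture channel and 48.3% in the mono-culture channel, and the lowest dye-swap correlation, 0.798. The part of signal strength in the low ratio was not tested.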

How the results depend on the processing

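The falls of CD163, CD209 and ADGRE1 in the macrophages and their higher level in mono-cultured macrophages passed under every alternative run. The rises in the cancer cells were the least stable. For CD163 the log2 ratio of 5.89 became 3.25 with normexp and loess, 3.73 with normexp and median centring (adjusted p = 0.0585 from limma) and 5.09 without CMT-U27 and P114, an alternative chosen after seeing the data, ran from 5.54 to 6.83 without a single line, and stayed 5.89 with the methods' t-test (adjusted p = 0.225). For ADGRE1 the ratio of 3.26 became 1.29 with normexp and loess, 1.45 with median centring (adjusted p = 0.143), 3.26 without a filter on dim probes (adjusted p = 0.0801) and 3.26 with the methods' t-test (adjusted p = 0.382), and 2.55 to 3.98 without a single line. CD209 in the cancer cells was 2.96 with the co-culture in Cy3 alone. Leaving out unmeasured co-cultures, also added later, changed no call of the 3 genes.

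With the slide as a fixed block the difference between populations was -6.21 for CD163 and -2.58 for ADGRE1 and no gene was called (0, with 3256 at an unadjusted p under 0.05, against 8760 calls with the slide as a random block). The replicate block, which pairs both populations of a co-culture, called 7945 genes for the difference in place of 7303 and changed no call of CD163 or ADGRE1, and CD209 was not tested in it. The level of CD209 in sorted macrophages minus sorted cancer cells, 0.59, turned to -0.079 with normexp, loess and Aquantile. It was -0.24 without CMT-W1 and 1.00 without CMT-W2, and was not tested without any of the other lines. The share of CD209 was 10.8% in sorted cancer cells and 10.3% in sorted macrophages with normexp, loess and Aquantile.

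The genes called in the cancer cells, 3130, became 2000 with median centring, 50 with normexp and loess, 1799 without a filter, 1892 with the co-culture in Cy5 alone, 6617 with 10 arrays and the slide as a random block, 8 with the methods' t-test, 151 without CMT-U27 and P114, and 567 to 2464 without a single line, lowest without P114. Of these calls 1494 of 3130 were up, against 1771 of 2000 with median centring and 42 of 50 with loess. In the macrophages 12120 became 6561 with median centring and 7706 without CMT-U27 and P114, and 9038 to 12717 without a single line. For the difference, 7303 became 4035 with median centring, 2280 without CMT-U27 and P114 and 4646 to 6499 without a single line. In mono-culture 8137 became 5088 to 9515 without a single line. Between the sorted populations 1 gene became 2 with normexp, loess and Aquantile and 0 to 1 without a single line. The cause of these shifts was not tested. Signal over background limits CD209 and ADGRE1 in the cancer cells, above all in CMT-W1.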
